A study of Mus musculus with 16 samples.

Results

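The TREM and paired immune receptor genes were 10 genes picked by name from the 47069 genes of the count table: Trem1, Trem2, Trem3 and Treml2, the adaptors Tyrobp and Hcst, and the paired receptors Pilra, Pilrb1, Sirpa and Lilrb4a. They were measured by RNA sequencing in macrophages grown from bone marrow (BMMs), taken from C57BL/6 mice aged 8 to 10 weeks. All BMMs were primed overnight with 10 ng/mL IFNγ and activated for 1 hr with 100 ng/mL LPS together with immune complexes of IgG and ovalbumin (LPS/ICs). One group received the gamma-secretase inhibitor (GSI) DAPT at 25 µM and the other its vehicle DMSO at 0.01%, with 2 libraries each. DAPT blocks the protease that releases the active part of Notch receptors and that also cuts many other membrane proteins, so it is not specific for Notch. No unactivated or unprimed library was used here, so the values describe the GSI effect within activated cells.

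TREM receptors are immunoglobulin-type receptors of myeloid cells. TREM1 and TREM2 have short tails and signal through DAP12, the adaptor encoded by Tyrobp, whose ITAM is phosphorylated on tyrosines and recruits the kinase Syk. DAP10, encoded by Hcst, carries a YxxM motif that recruits PI3-kinase and partners NKG2D and, together with DAP12, some myeloid receptors. Paired receptors are related proteins of which some carry inhibitory ITIMs that recruit the phosphatases SHP-1 and SHP-2, as PILRα, SIRPα and LILRB4 do, while others, such as PILRβ, lack them and use DAP12. TREM1 is known for amplifying inflammatory responses in macrophages, and TREM2 for lipid sensing, phagocytosis and restraint of inflammatory signaling. TREM2 is shed by ADAM proteases, and gamma-secretase cuts the stub that stays in the membrane.

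The signaling motifs of the adaptors and inhibitory receptors lie in the coding sequence of their tails. These stretches, read from GENCODE M21 transcripts, are shown because they set the classes used below, with the codons of the tyrosine and of the residue that closes each motif in capitals.
Tyrobp ITAM, codons 92 to 106 of 114: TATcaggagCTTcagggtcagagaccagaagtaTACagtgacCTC
Hcst YxxM, codons 72 to 75 of 79: TACatcaacATG
Pilra, codons 265 to 270 of 302: atcgtgTATgcttccATC
Pilra, codons 294 to 299 of 302: actgtgTACtccatcGTA
Sirpa, codons 438 to 443 of 513: atcacaTACgcagacCTG
Sirpa, codons 462 to 467 of 513: acagaaTATgcaagcATT
Sirpa, codons 479 to 484 of 513: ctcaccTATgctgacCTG
Sirpa, codons 503 to 508 of 513: tcagagTATgctagtGTC
Lilrb4a, codons 298 to 303 of 335: attgtcTACgcccagGTA
Lilrb4a, codons 320 to 325 of 335: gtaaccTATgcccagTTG
Pilrb1, with 225 codons, held no ITIM-like match, and neither did Trem1 with 230 codons or Trem2 with 249 codons. The ITIM-like pattern was isoleucine, leucine, valine, serine or threonine, any residue, tyrosine, any 2 residues, then isoleucine, leucine or valine. These patterns are short, and a match alone does not make a motif. The ITIM-like pattern also matched at codons 8 to 13 and 90 to 95 of Lilrb4a, at codons 198 to 203 of Treml2 and, overlapping the ITAM, at codons 90 to 95 of Tyrobp. YxxM also matched at codons 210 to 213 of Pilrb1, 40 to 43 of Trem3 and 108 to 111 of Treml2.

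The 4 TREM genes lay in the same region, on the plus strand of chromosome 17 (GRCm38). Trem1 spanned chr17:48232768-48246924, Trem3 chr17:48247777-48258841, Treml2 chr17:48299498-48312533 and Trem2 chr17:48346401-48354147. Tyrobp (chr7:30413760-30417585, plus strand) and Hcst (chr7:30417712-30419854, minus strand) ended 126 bases apart. Pilra (chr5:137821952-137836281) and Pilrb1 (chr5:137852147-137858106) followed each other on the minus strand with 15865 bases between them. Sirpa lay at chr2:129592835-129632228 and Lilrb4a at chr10:51490956-51496611, both on the plus strand. The position of Lilrb4a is that of the gene with this name in GENCODE M21. The ID counted as Lilrb4a is a different one, which in M21 is a read-through gene over Lilrb4a and its neighbor Lilr4b.

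Library totals ran from 42694655 to 56932059 counts, and the members took between 0.387% and 0.429% of each. Values are given below as CPM, the counts scaled to a library total of 1000000, and 3 counts, taken as the floor of detection, equalled 0.0529 to 0.0697 CPM. The floor covers counting error only, while the intervals of fold changes also hold the spread between libraries. The labels do not say whether the libraries came from separate cultures or animals, so the p-values measure the spread between these libraries, which may be technical. The macrophage identity of the cells was checked with 10 markers, all above 3 counts in every library. Their summed level was 14592 and 14717 CPM in DMSO and 12009 and 13043 CPM with GSI, with 7 markers lower and 1 higher at a false discovery rate (FDR) under 0.05, where 21.9% of all tested genes were lower and 19.0% higher. Markers of neutrophils summed to 0.697 to 1.43 CPM, of B cells to 0.385 to 0.579 CPM, of stromal cells to at most 0.209 CPM and of erythroid cells to at most 0.0405 CPM. Mast cell and basophil markers were at 0 in every library, and Elane, Prtn3, Siglech and Cd209a were also at 0. Dendritic cell markers summed to 187 and 179 CPM in DMSO and to 114 and 115 CPM with GSI, nearly all of it from Clec9a, and to 3.93 to 5.72 CPM without that gene. Osteoclast markers summed to 17.8 to 18.8 CPM, and of the 4 tested, Ctsk and Acp5 were higher with log2 fold changes of 1.06 and 0.30 and Ocstamp was lower with -0.51. Of the 4 tested dendritic cell markers, Clec9a and Xcr1 were lower with log2 fold changes of -0.69 and -0.42. T and NK cell markers summed to 25.3 to 35.6 CPM, and to at most 0.0414 CPM without Klrk1. The part of these marker differences in the results below was not tested. In these bulk libraries, fewer cells of a type and less RNA per cell cannot be told apart.

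Of the 10 genes, 9 passed the filter on low counts and 5 were called at an FDR under 0.05, where 40.8% of all 13211 tested genes were called. Trem1 and Trem2 were lower with GSI, against 21.9% of all tested genes, and Treml2, Pilra and Pilrb1 were higher, against 19.0%. Only Trem1 of the 9 also passed an absolute log2 fold change of 1.5, as 2.91% of all tested genes did. The GSI and DMSO libraries did not overlap for any of the 9, and 70.6% of all tested genes shared that property. The median absolute log2 fold change was 0.23 over the 9 and 0.24 over all tested genes, so the members as a group were near the background.

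**Figure D1:**
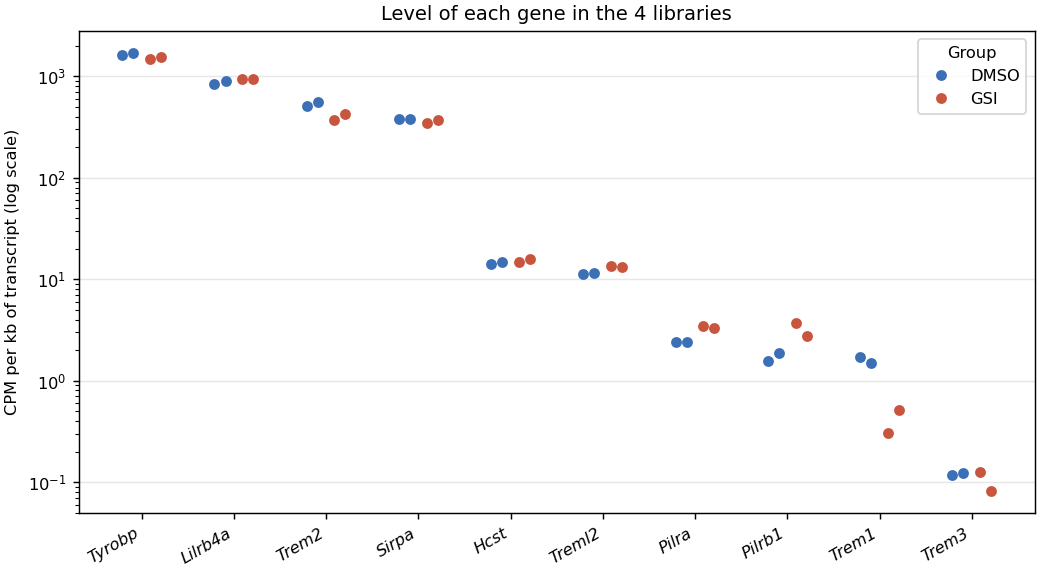
Level of each gene in each of the 4 libraries in CPM per kb of transcript, on a log axis, with DMSO in blue and GSI in red and 1 point per library. Tyrobp, Lilrb4a, Trem2 and Sirpa lie above 300 CPM per kb of the transcript with the longest coding sequence, the other 6 genes lie below 20, and the Trem1 points separate most between the groups.

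Levels of different genes can be compared between genes only per length, here CPM per kb of the transcript with the longest coding sequence. In DMSO, Tyrobp was highest with 1653 ± 56.1 (SD, n = 2), followed by Lilrb4a with 877 ± 39.4, Trem2 with 534 ± 35.1 and Sirpa with 380 ± 3.69 CPM per kb. With GSI, Trem2 had 397 ± 39.5 and Sirpa 357 ± 14.4 CPM per kb. The order of Lilrb4a, Trem2 and Sirpa depends on the length used, since reads were counted over all exons of a gene. Divided by all exon bases instead, a choice made after seeing the data, the DMSO means were 1398 for Tyrobp, 296 for Sirpa, 232 for Lilrb4a and 114 for Trem2 CPM per kb. Under both lengths these 4 genes stayed above the other 6. For Lilrb4a both lengths are those of the GENCODE M21 gene with this name and not of the read-through gene counted. Its levels per kb and its place in the order are therefore uncertain. Hcst (14.5 ± 0.394) and Treml2 (11.4 ± 0.237) formed a middle tier in DMSO. Pilra (2.38 ± 0.00700), Pilrb1 (1.73 ± 0.228) and Trem1 (1.60 ± 0.154 CPM per kb) came next, and the last pair did not differ beyond its spread. Trem3 was last with 0.121 ± 0.00510 CPM per kb.

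Trem1, the inflammation-amplifying receptor, fell most. It had 5.11 and 4.46 CPM in the DMSO libraries and 0.910 and 1.52 CPM in the GSI libraries, from 220, 253, 44 and 75 counts. Both GSI libraries were below both DMSO libraries, and the DMSO mean was 3.94 times the GSI mean. The log2 fold change was -1.97 (SE 0.192, 95% confidence interval -2.37 to -1.57, edgeR quasi-likelihood FDR 7.94e-08), the 179th lowest of all tested genes. Leaving out each library in turn gave -2.38 to -1.65, with the call kept each time.

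Trem2, the lipid-sensing receptor, was far more abundant and fell less. Its level was 538 and 590 CPM in DMSO and 390 and 449 CPM with GSI. The groups did not overlap, and the GSI mean was 0.744 of the DMSO mean. The log2 fold change was -0.43 (SE 0.0802, interval -0.59 to -0.26, FDR 0.000239).

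Because both receptors use DAP12, their counts were also set against each other within each library. There were 9.51 and 7.56 Trem1 counts per 1000 Trem2 counts in DMSO and 2.33 and 3.38 with GSI. The DMSO libraries were above the GSI libraries in this ratio, which needs no scaling between libraries.

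Treml2, encoding TLT2, a relative of the TREMs without a known DAP12 partner, had 23.4 and 24.1 CPM in DMSO and 28.1 and 27.8 CPM with GSI. The GSI libraries were both higher, with a log2 fold change of 0.23 (SE 0.0789, interval 0.07 to 0.40, FDR 0.0231). This call was the least stable of the 5, since it was lost without DMSO library 1 (FDR 0.125), without DMSO library 2 (FDR 0.0650), without GSI library 1 (FDR 0.0706) and with DESeq2 (FDR 0.0762), with the log2 fold change between 0.21 and 0.25. Over all alternatives its FDR was lowest, 8.40e-05, with the runs tested as separate samples, although runs of a library are not independent. It was highest, 1.00, in a test for a change above 1.5-fold, which asks a stricter question. Trem3, a DAP12-linked receptor of the same cluster, had only 5 and 7 counts in DMSO and 6 and 4 with GSI, and was not tested. Its pooled ratio of GSI to DMSO was 0.851 with an exact 95% interval, of counting error only, of 0.329 to 2.15, so a change within that range was not detectable at this depth.

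**Figure D2:**
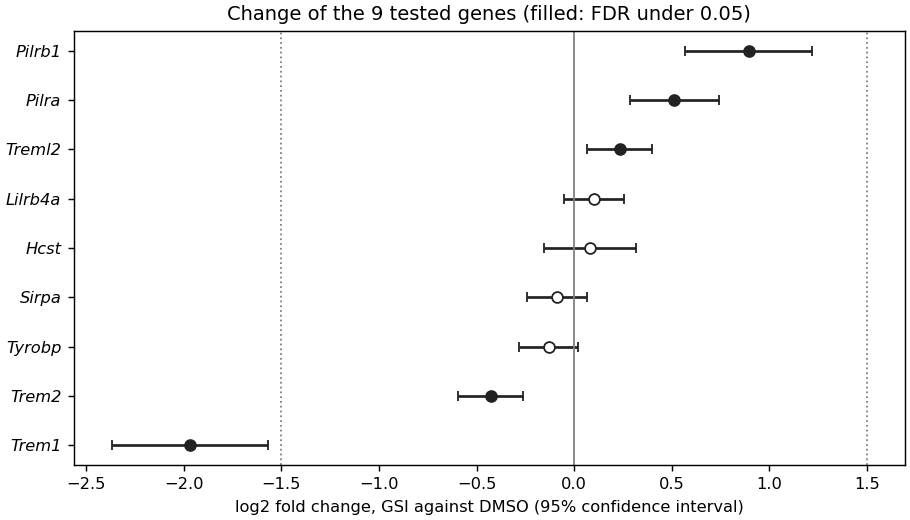
Log2 fold change of GSI against DMSO for the 9 tested genes with 95% confidence intervals computed from the edgeR test statistic. Filled points have an FDR under 0.05, dotted lines mark a change of 1.5 in either direction, and Trem1 at -1.97 is the only point beyond them.

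The adaptors differed little. Tyrobp, the DAP12 gene, had 910 and 955 CPM in DMSO and 828 and 875 CPM with GSI. The GSI libraries were both lower, with a log2 fold change of -0.13 (SE 0.0735, interval -0.28 to 0.02, FDR 0.163), which did not pass the test. Hcst, the DAP10 gene, had 6.28 and 6.52 CPM in DMSO and 6.58 and 6.97 CPM with GSI. Its log2 fold change of 0.08 (SE 0.113, interval -0.16 to 0.32, FDR 0.604) did not pass either.

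Set against each other, there were 6.90 and 6.83 Hcst counts per 1000 Tyrobp counts in DMSO and 7.95 and 7.96 with GSI. Tyrobp thus had over 100 times the counts of Hcst in every library. The ratio rests on 270 and 370 Hcst counts in DMSO and 318 and 344 with GSI, and it was not tested. Klrk1, which encodes the DAP10 partner NKG2D and was chosen after its values were seen, was lower with GSI, with a log2 fold change of -0.39 (FDR 0.000845). For each Trem2 count there were 1.69 and 1.62 Tyrobp counts in DMSO and 2.12 and 1.95 with GSI, so this ratio was higher in both GSI libraries.

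Among the paired receptors, the inhibitory Pilra and the activating Pilrb1 both rose. Pilra had 6.16 and 6.13 CPM in DMSO and 8.98 and 8.57 CPM with GSI. The groups were well separated, with a log2 fold change of 0.51 (SE 0.109, interval 0.29 to 0.74, FDR 0.000782). Pilrb1 had 2.84 and 3.42 CPM in DMSO and 6.74 and 4.98 CPM with GSI. Both GSI libraries were higher but far apart, and the log2 fold change was 0.89 (SE 0.155, interval 0.57 to 1.22, FDR 0.000105), with 0.66 to 1.10 on leaving out each library.

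The counts of this pair carry limits from their sequence. Of the 50-base windows in Pilrb1 exons, 30.1% also occurred in another counted gene, mostly in its near copy Pilrb2, and 7.57% of those in Pilra did, so reads from these genes may be split or lost. Pilrb2 itself had 2.72 and 3.08 CPM in DMSO and 4.53 and 4.62 CPM with GSI (log2 fold change 0.65, FDR 0.000973), and the summed counts of Pilrb1 and Pilrb2 gave 0.78 (FDR 1.98e-05). Pilra also shared 468 exon bases with Zcwpw1 on the other strand, whose log2 fold change was 0.15 (FDR 0.458). Pilrb1 shared 97 exon bases with Gm36551 on the other strand. Gm36551 had 1 and 2 counts in DMSO and 2 and 0 with GSI, and was not tested. The ratio of Pilra to Pilrb1 counts was 2.17 and 1.79 in DMSO and 1.33 and 1.72 with GSI, lower with GSI but with DMSO library 2 and GSI library 2 close together.

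Sirpa, encoding the inhibitory receptor for CD47, was the member with the most counts. It had 1442 and 1462 CPM in DMSO and 1327 and 1406 CPM with GSI. The log2 fold change of -0.09 (SE 0.0734, interval -0.24 to 0.07, FDR 0.362) did not pass the test. Cd47, its ligand, named after its values were seen, was lower with a log2 fold change of -0.20 (FDR 0.0374). Lilrb4a, encoding the inhibitory receptor gp49B, had 1172 and 1249 CPM in DMSO and 1286 and 1313 CPM with GSI. Its log2 fold change was 0.10 (SE 0.0736, interval -0.05 to 0.26, FDR 0.285), also short of the test.

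Lilrb4a has the near copy Lilr4b beside it. The GENCODE M21 gene named Lilrb4a shared 26.1% of its 50-base windows with Lilr4b. The ID that the table names Lilrb4a belongs in GENCODE M21 to a read-through gene over both, so the split of reads between them is uncertain. Lilr4b had a log2 fold change of -0.13 (FDR 0.244), and the summed counts gave -0.03 (FDR 0.794), so the sign for Lilrb4a turned on this choice. The ratio of Lilrb4a to Lilr4b was 0.745 and 0.671 in DMSO and 0.883 and 0.783 with GSI.

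**Figure D3:**
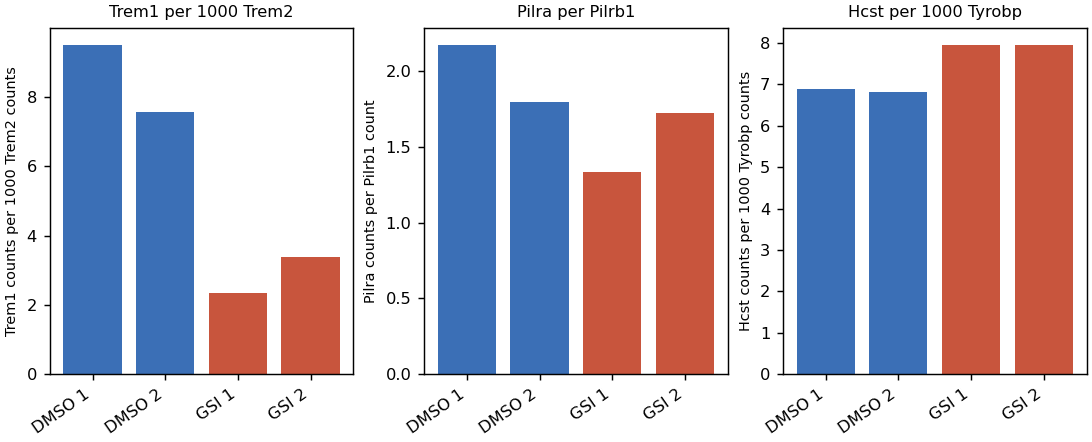
Ratios of counts within each library, from 0, as 1 bar per library with DMSO in blue and GSI in red. The ratios were not tested. Trem1 per 1000 Trem2 counts falls from 9.51 and 7.56 to 2.33 and 3.38, Pilra per Pilrb1 count runs from 2.17 down to 1.33, and Hcst per 1000 Tyrobp counts is 6.90 and 6.83 against 7.95 and 7.96.

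Promoter sequences of RefSeq (GRCm38.p6), from 250 bases before to 50 after the start, were matched by symbol for 5 members, Trem1, Trem2, Hcst, Pilra and Pilrb1. The sequences of Trem1, Trem2, Pilra and Pilrb1, all called with GSI, are shown because the pairs moved in opposite directions, with motif matches in capitals.
Trem1, chr17:48232489-48232788, plus strand: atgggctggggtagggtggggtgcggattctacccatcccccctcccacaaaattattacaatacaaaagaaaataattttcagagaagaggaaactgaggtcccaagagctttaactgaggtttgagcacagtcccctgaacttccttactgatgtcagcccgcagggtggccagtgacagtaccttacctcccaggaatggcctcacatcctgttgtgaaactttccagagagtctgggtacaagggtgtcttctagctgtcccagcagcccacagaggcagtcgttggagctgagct
Trem2, chr17:48346151-48346450, plus strand: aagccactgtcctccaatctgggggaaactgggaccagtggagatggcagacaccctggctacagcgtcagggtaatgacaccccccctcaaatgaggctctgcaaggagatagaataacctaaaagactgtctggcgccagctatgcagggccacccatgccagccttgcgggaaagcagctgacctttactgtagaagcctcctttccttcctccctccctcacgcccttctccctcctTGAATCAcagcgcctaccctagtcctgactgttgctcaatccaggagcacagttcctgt
Pilra, chr5:137836229-137836528, minus strand: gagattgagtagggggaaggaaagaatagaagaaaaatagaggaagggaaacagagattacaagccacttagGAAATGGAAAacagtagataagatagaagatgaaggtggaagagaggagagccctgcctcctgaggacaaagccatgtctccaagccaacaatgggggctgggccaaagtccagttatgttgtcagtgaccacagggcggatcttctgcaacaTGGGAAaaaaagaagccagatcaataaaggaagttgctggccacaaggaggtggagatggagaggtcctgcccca
Pilrb1, chr5:137858000-137858299, minus strand: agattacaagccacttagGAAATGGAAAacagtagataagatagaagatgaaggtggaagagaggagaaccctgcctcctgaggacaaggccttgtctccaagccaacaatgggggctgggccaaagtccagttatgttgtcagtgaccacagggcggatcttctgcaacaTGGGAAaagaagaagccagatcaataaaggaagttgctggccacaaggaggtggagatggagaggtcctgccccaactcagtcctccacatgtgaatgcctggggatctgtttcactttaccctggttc
The motifs, searched on both strands, were the core bound by RBPJ, the DNA-binding partner of Notch (TGGGAA), AP-1 (TGANTCA), PU.1 (GAGGAAGT), an interferon-response pattern of 2 copies of GAAA with any 2 bases between them, and the NF-κB sites made of GGGA, then A or C, then TTTCC. Among 32851 RefSeq promoters, TGGGAA was present in 25.6%, TGANTCA in 7.81%, the interferon pattern in 3.44%, GAGGAAGT in 3.20% and the NF-κB sites in 0.0883% with A and 0.155% with C. A match is a description of letters and not a binding site.

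The Pilra and Pilrb1 promoters were almost the same sequence. At a shift of 54 bases, 242 of 246 aligned bases were identical (98.4%). The RBPJ core stood 25 bases before the Pilra start and 79 bases before the Pilrb1 start, and the interferon pattern 178 and 232 bases before. Trem2 held TGAATCA 9 bases before its start, Trem1 held none of the motifs, and Hcst, which did not pass the test, held TGGGAA 232 bases before its start.

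The wider receptor system was described with gene lists chosen with earlier results of these data known, so their counts are no independent evidence. Of 20 tested genes on a list of other activating receptors and relatives, 6 were lower and 5 higher (55.0% called, where 40.8% of all tested genes were called, 21.9% lower and 19.0% higher), with a median log2 fold change of -0.08 against 0.01 over all tested genes. Most genes of this list encode partners of DAP12, DAP10 or FcRγ, but it also held Fcer1g, the FcRγ adaptor itself, Nfam1, whose product carries its own ITAM, and Treml1, whose product carries an ITIM. Nfam1 fell from a mean of 155 to 95.2 CPM (log2 fold change -0.70, FDR 9.19e-08), and Cd300ld, a DAP12 or FcRγ partner, fell by 0.53 (FDR 1.91e-05). Of 19 tested genes on a list of other inhibitory receptors and relatives, 8 were lower and 3 higher (57.9% called against 40.8% of all tested genes, median -0.13). The list also held Clec4a1, Clec4a3 and Lilr4b, whose products lack the tail ITIM of their relatives. Clec4a2, encoding the ITIM-bearing lectin receptor DCIR, and its relative Clec4a1 changed by -1.12 (FDR 3.01e-07) and -0.68 (FDR 5.40e-07), and Pecam1, encoding CD31, by -1.01 (FDR 0.00211) on the log2 scale.

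Below the receptors, 17 of 37 tested ITAM and ITIM signaling genes were lower and 6 higher (62.2% called against 40.8% of all tested genes, median -0.15). Dok2, an inhibitory adaptor, fell from 88.0 to 47.5 CPM (-0.89, FDR 6.60e-09), and Pik3cg, a PI3-kinase subunit, fell by 0.63 (FDR 1.27e-05). Src, a Src-family kinase that phosphorylates ITAMs and ITIMs, rose from 24.5 to 45.4 CPM (0.88, FDR 1.50e-07). Syk, the kinase recruited by the DAP12 ITAM and likewise named after its values were seen, had a log2 fold change of -0.15 (FDR 0.112).

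Of 8 tested ligand genes, 3 were lower and 2 higher (62.5% called against 40.8% of all tested genes, median -0.11). Thbs1, encoding thrombospondin-1, a ligand of CD47, fell from 119 to 25.2 CPM (-2.23, FDR 2.34e-13). Cd200 rose by 0.94 (FDR 1.34e-05), and Lgals3, encoding galectin-3, a reported TREM2 ligand, rose by 0.71 (FDR 3.19e-07).

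Of 9 genes for TREM2 shedding and intramembrane cleavage, 2 were lower and 2 higher (median -0.06), and the 44.4% called was near the 40.8% of all tested genes. Adam10, a sheddase of TREM2, fell from 241 to 153 CPM (-0.66, FDR 4.58e-07). The gamma-secretase subunit genes Aph1c and Psen2 rose by 0.44 (FDR 0.000115) and 0.43 (FDR 0.000146).

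Of 20 genes that follow TREM2 in lipid-handling macrophages and microglia, 6 were lower and 9 higher (75.0% called against 40.8% of all tested genes, median -0.01), and 2 passed both thresholds, as 2.91% of all tested genes did. Cst7, encoding the protease inhibitor cystatin F, rose from 12.4 to 65.2 CPM (2.40, FDR 2.34e-13), and Fabp5, a fatty acid carrier, rose by 1.61 (FDR 5.15e-12). Lpl, lipoprotein lipase, changed the other way, by -1.04 (FDR 2.31e-09). Genes of this list thus moved in both directions while Trem2 fell.

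**Figure D4:**
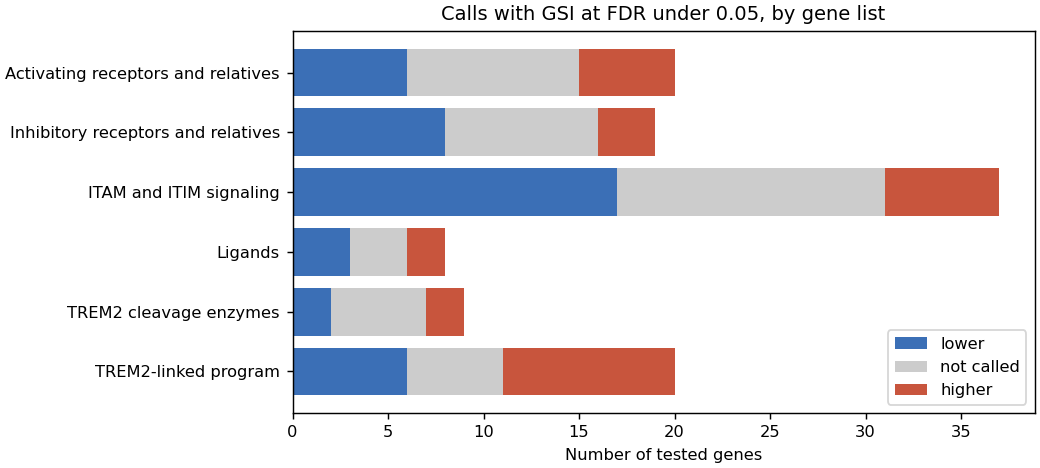
Number of tested genes called lower (blue), not called (grey) or called higher (red) with GSI at an FDR under 0.05, for 6 gene lists. Signaling genes were lower in 17 of 37, while the TREM2-linked program had 6 lower and 9 higher of 20. Of all tested genes, 21.9% were lower and 19.0% higher.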

How the data were processed

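RNA was sequenced from 2 DMSO and 2 GSI libraries of LPS/IC-activated BMMs, each on 4 sequencing runs. The deposited table holds raw counts per gene, made by the authors with Trimmomatic, STAR 2.5.0a and HTSeq on stranded libraries. The methods name mm10, and the submitters' processing notes list mm9 and mm10. The 4 runs of a library, which differed by no more than sampling noise, were summed. Totals were 42694655 to 56932059 counts. Counts were scaled by TMM, filtered by filterByExpr and fitted across all genes in edgeR 4.0.16 (R 4.3.3) with the quasi-likelihood test and Benjamini-Hochberg adjustment, after a test on simulated data. Positions and transcripts came from GENCODE M21. Of 47069 gene IDs, 46574 were in it. Promoters came from RefSeq (GRCm38.p6).

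The members and lists were chosen with earlier results of these data known. All 10 members were named. Of each list of the wider receptor system, genes with an FDR under 0.05 and a mean of at least 1 CPM were eligible. The 3 of these with the largest absolute log2 fold change were named, as were near copies and overlapping genes of members. Klrk1, Cd47 and Syk, some marker genes and genes named only to describe a list were outside this rule. Alternatives included DESeq2 1.42.0, other scalings and filters, and leaving out each library.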

Additional observations from a re-analysis of the deposited data

How the results depend on the processing

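Under 14 alternatives, and 2 chosen after seeing the data, which summed near-identical genes, 114 of 126 values of single members kept their direction and side of the threshold, 8 lost the call and 3 gained it. The direction of Lilrb4a turned to -0.0308 when it was summed with Lilr4b, and neither value passed the test. Testing the 16 runs as separate samples called 8 members and 7 genes of TREM2 shedding, and 7582 of 11179 genes in all. In that setting the runs of a library are not independent. Testing for a change above 1.5-fold with glmTreat, a stricter question by construction, called 1 member (Trem1), 839 genes in all (71.5% of them lower, against 53.6% in the main test), 0 genes of the activating receptor list, 1 of the inhibitory receptor list, 2 signaling genes, 2 ligands, 0 shedding genes and 7 genes of the TREM2-linked program. Among genes without exons on the other strand, 3 members were called, since Pilra and Pilrb1 are not among those genes. Leaving out each library in turn gave 3 to 4 called ligand genes, with 3 without DMSO library 1, against 5 with all. Samples of the same replicate number deviated together with r = 0.25 over 7565 genes, but with 2 pairs the numbers were treated as names only. With the replicate block, 6444 genes and 5 members were called. With 2 libraries a group, small differences such as those of Hcst and Tyrobp are resolved only to the intervals given. Hcst, Trem1, Pilra and Pilrb1 rest on 44 to 434 counts a library.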
